A study of Mus musculus with 8 samples.

Results

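Oxidative phosphorylation genes of the nucleus were taken by symbol: every protein-coding gene of the GENCODE M21 mouse annotation whose symbol begins with Nduf, Sdh, Uqcr, Cox4, Cox5, Cox6, Cox7, Cox8 or Atp5, together with Cyc1. The rule gave 99 genes of the 55487 in the deposited tables. They comprised 38 genes placed in complex I, 4 in complex II, 9 in complex III, 18 in complex IV, 17 in complex V (ATP synthase) and 13 that encode assembly or associated factors (Ndufaf1 to Ndufaf8, Sdhaf1 to Sdhaf4 and Atp5s) rather than subunits. A level of at least 1 FPKM (sequenced fragments relative to transcript length and library size) in at least 4 libraries was reached by 92 of the 99, among 13032 such genes in all. The other 7 were Cox4i2, Cox6a2, Cox6b2, Cox7b2, Cox8b, Cox8c and an additional annotated copy of Atp5o listed at 0 in all 8 libraries. The rule follows symbols, so it leaves out subunits with other names and the gene Ndufb1-ps, which is annotated as a noncoding RNA and was at 548 to 1088 FPKM.

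The libraries came from a study of tacrolimus (FK506), a calcineurin inhibitor used against transplant rejection, in mice with B16F10 melanoma, a pigmented tumor line of C57BL/6 origin. C57BL/6 mice carried B16F10 cells under the skin, and treatment began when tumors reached about 50 mm3, which was 7 to 9 days after the cells were injected. One group of 4 mice received tacrolimus by intraperitoneal injection at 3 mg/kg every 5 days, and the other group of 4 received vehicle on the same schedule. All tumors were collected 6 days after treatment started, and the RNA of 1 library per mouse is labelled as that of CD8+ lymphocytes sorted from them.

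The respiratory chain sits in the inner membrane of mitochondria. Complex I takes electrons from NADH and complex II from succinate, complex III passes them from ubiquinol to cytochrome c, and complex IV hands them to oxygen. Complexes I, III and IV pump protons, and complex V lets them flow back to make ATP. Most subunits are nuclear genes whose products are imported, while a core set is encoded by mitochondrial DNA, so both genomes supply complexes I, III, IV and V, and complex II is wholly nuclear. In CD8+ T cells, activation and memory formation are known to draw on this machinery, and tumor cells and red cell precursors express it as well.

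The defining markers of the labelled cell type lay below those of melanoma cells in every library. The mean log2(FPKM + 1) level of 13 T cell markers lay between 2.38 and 4.88 in the tacrolimus libraries and between 4.98 and 7.07 in the vehicle libraries, and all 13 were lower with tacrolimus at an unadjusted p under 0.05 (limma), as were 15.8% of all genes tested. Melanoma markers were far higher, at 9.00 to 9.36 and 8.84 to 9.64, with 0 of 10 passing that threshold. Of the 12 macrophage and monocyte markers, all 12 had a lower mean and 7 passed that threshold (levels of 2.91 to 3.98 and 3.55 to 5.65). For the erythroid markers, 5 of 5 had a higher mean with none passing (6.85 to 9.52 and 3.84 to 9.20). The values below therefore belong to RNA mixed from several cell types, in which fewer cells of a type and less RNA per cell cannot be told apart. The part of these cells in the differences below was not tested. The labels do not say more of how the 4 mice of a group were housed or processed, so p-values measure the spread between these libraries only.

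RefSeq promoter sequences on GRCm38.p6, each running from 250 bases before to 50 bases after a start site, were found for 80 of the 98 member symbols, in 85 windows. The letters GCGCNTGCG, a core of the site of NRF1 (nuclear respiratory factor 1, a factor known to act on respiratory chain genes), were found on either strand in 28 of the 85 windows (32.9%). The same letters were in 6.31% of all 32851 windows of that length and in 13.1% of the 12289 windows of genes tested here. The ETS letters CCGGAAG were in 24.7% of the member windows against 8.86% of all windows and 17.7% of those of tested genes. The YY1 letters AAGATGGCG were in 9.41% against 1.4% and 3.08%. By complex, the NRF1 letters were in 10 of 35 windows of complex I, 2 of 3 of complex II, 3 of 5 of complex III, 1 of 13 of complex IV, 8 of 17 of complex V and 4 of 12 of assembly factors. The median difference between treatments was 0.07 (log2) both in the 27 tested members with the NRF1 letters and in the 50 without. A match is a description of the letters and not of binding.

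Stretches upstream of 4 members are shown with matches in capitals: the ubiquitous and muscle-type forms of complex IV subunit 7a, whose ratio is described below and whose windows hold none of the 3 motifs, and, as examples with the NRF1 letters, an ATP synthase subunit and a complex I assembly factor. Each comes from the part of the RefSeq window that lies before the first annotated exon, written 5′ to 3′ on the strand of the gene. The Atp5l stretch leaves out the bases next to the annotated gene, which begins at 44920742 on its strand. Cox7a1 is chr7:30183921-30184143 (plus strand), Cox7a2 is chr9:79759879-79760103 (minus), Ndufaf4 is chr4:24897833-24898082 (plus) and Atp5l is chr9:44920752-44920992 (minus).
Cox7a1: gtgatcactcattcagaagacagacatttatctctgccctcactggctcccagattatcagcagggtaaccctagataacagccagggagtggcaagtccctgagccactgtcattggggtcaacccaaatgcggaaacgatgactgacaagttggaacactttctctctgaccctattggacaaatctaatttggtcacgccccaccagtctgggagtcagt
Cox7a2: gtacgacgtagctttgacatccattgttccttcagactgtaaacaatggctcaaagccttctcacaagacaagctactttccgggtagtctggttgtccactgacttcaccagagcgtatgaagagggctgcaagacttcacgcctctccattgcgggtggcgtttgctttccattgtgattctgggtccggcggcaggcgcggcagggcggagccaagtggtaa
Ndufaf4: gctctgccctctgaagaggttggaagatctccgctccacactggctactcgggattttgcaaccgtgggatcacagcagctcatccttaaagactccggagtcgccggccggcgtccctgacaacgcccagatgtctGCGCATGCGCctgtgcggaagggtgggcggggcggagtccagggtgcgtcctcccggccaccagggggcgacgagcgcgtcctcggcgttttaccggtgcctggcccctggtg
Atp5l: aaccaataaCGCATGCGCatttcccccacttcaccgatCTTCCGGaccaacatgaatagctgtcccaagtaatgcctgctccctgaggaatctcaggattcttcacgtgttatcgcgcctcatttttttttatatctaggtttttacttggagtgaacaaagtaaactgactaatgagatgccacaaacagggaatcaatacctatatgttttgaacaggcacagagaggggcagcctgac
In Ndufaf4 the capitals are the NRF1 letters read on both strands over each other, starting 113 bases before the RefSeq start. In Atp5l the first capitals are the NRF1 letters on the opposite strand, 241 bases before the start, and the second are the ETS letters on the opposite strand, 212 bases before it.

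All comparisons of level between genes use FPKM, which is per length. Members were among the abundant transcripts of every library: together they made up 3.8% (vehicle replicate 4) to 5.54% (tacrolimus replicate 3) of the summed FPKM. The median member level was 292 FPKM in complex I, 186 in complex II, 516 in complex III, 998 in complex IV and 534 in complex V, against 18.4 for the assembly factors. Subunits of one complex did not have equal transcript levels. In complex II, which holds 1 copy of each subunit, the flavoprotein Sdha was at 126 FPKM and the iron-sulfur protein Sdhb at 539, a ratio of 4.29. In complex I, means ran from 3.60 FPKM for Ndufa4l2, a hypoxia-related relative of Ndufa4, to 1566 for Ndufa4 itself, whose product is now counted with complex IV. In complex III they ran from 80.2 for the core protein Uqcrc2 to 1276 for the small subunit Uqcr11, a ratio of 15.9. Complex IV ran from 15.2 for Cox7a1 to 1364 for Cox5b, and complex V from 289 for Atp5k to 2239 for Atp5b, the catalytic beta subunit. Assembly factors ran from 6.67 for Sdhaf1 to 106 for Ndufaf8.

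**Figure D1:**
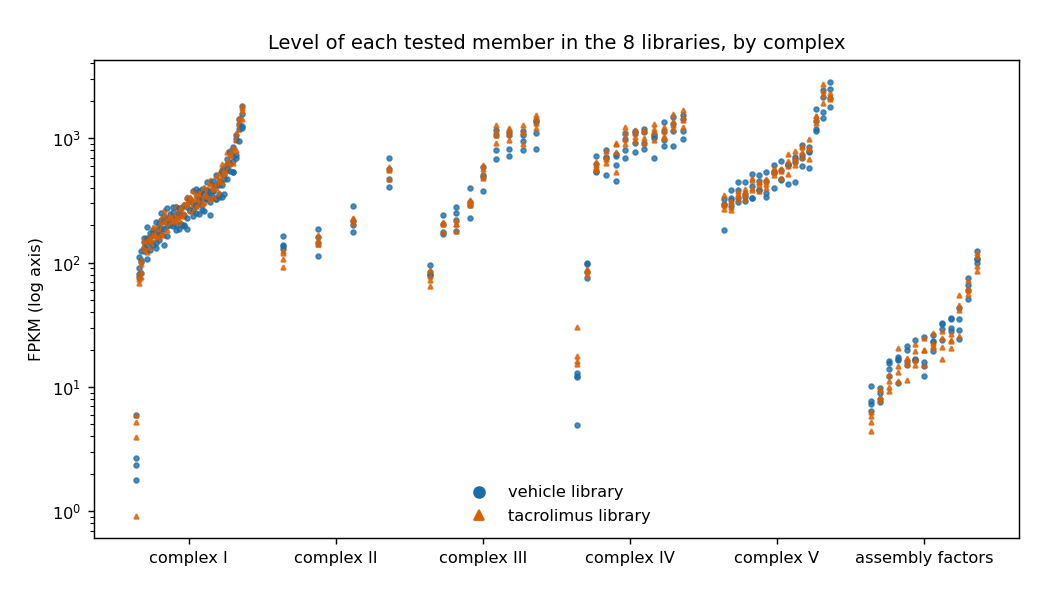
FPKM (log axis) of the 92 tested members in each of the 8 libraries, with 1 column of points per member, ordered by mean within each complex; circles are vehicle and triangles tacrolimus libraries. Most subunits lie above 100 FPKM, the 13 assembly factors lie mostly lower, and Ndufa4l2 and Cox7a1 stand below the other members of their complexes.

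The main comparison asked whether these transcripts differed between the tacrolimus and the vehicle mice. With limma on log2(FPKM + 1) as deposited, 0 of the 92 members passed an adjusted p of 0.05, and 0 of all 13032 genes did (0%). At an unadjusted p under 0.05, 4 of 92 members were lower in the tacrolimus libraries (Sdha, Sdhaf1, Sdhaf2 and Ndufaf4), where 15.8% of all genes tested were, and 1 was higher (Cox7a1), where 1.6% were. The tacrolimus and vehicle values did not overlap for 3 members that were lower, against 10.2% of all genes, and for 1 that was higher, against 0.767%. The mean was higher with tacrolimus for 64 of the 92 members (69.6%), and the median difference over members was 0.07 on the log2 scale. Over all genes tested the mean was higher for 24.3%, and the median was -0.19, so that the members' median lay 0.26 above that of all genes. The median turned to -0.0071 without vehicle replicate 4, the library with the lowest member sum. The members share libraries and are not independent of each other, and the interval of a single member's difference was wide, extending by 0.36 in either direction at the median.

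**Figure D2:**
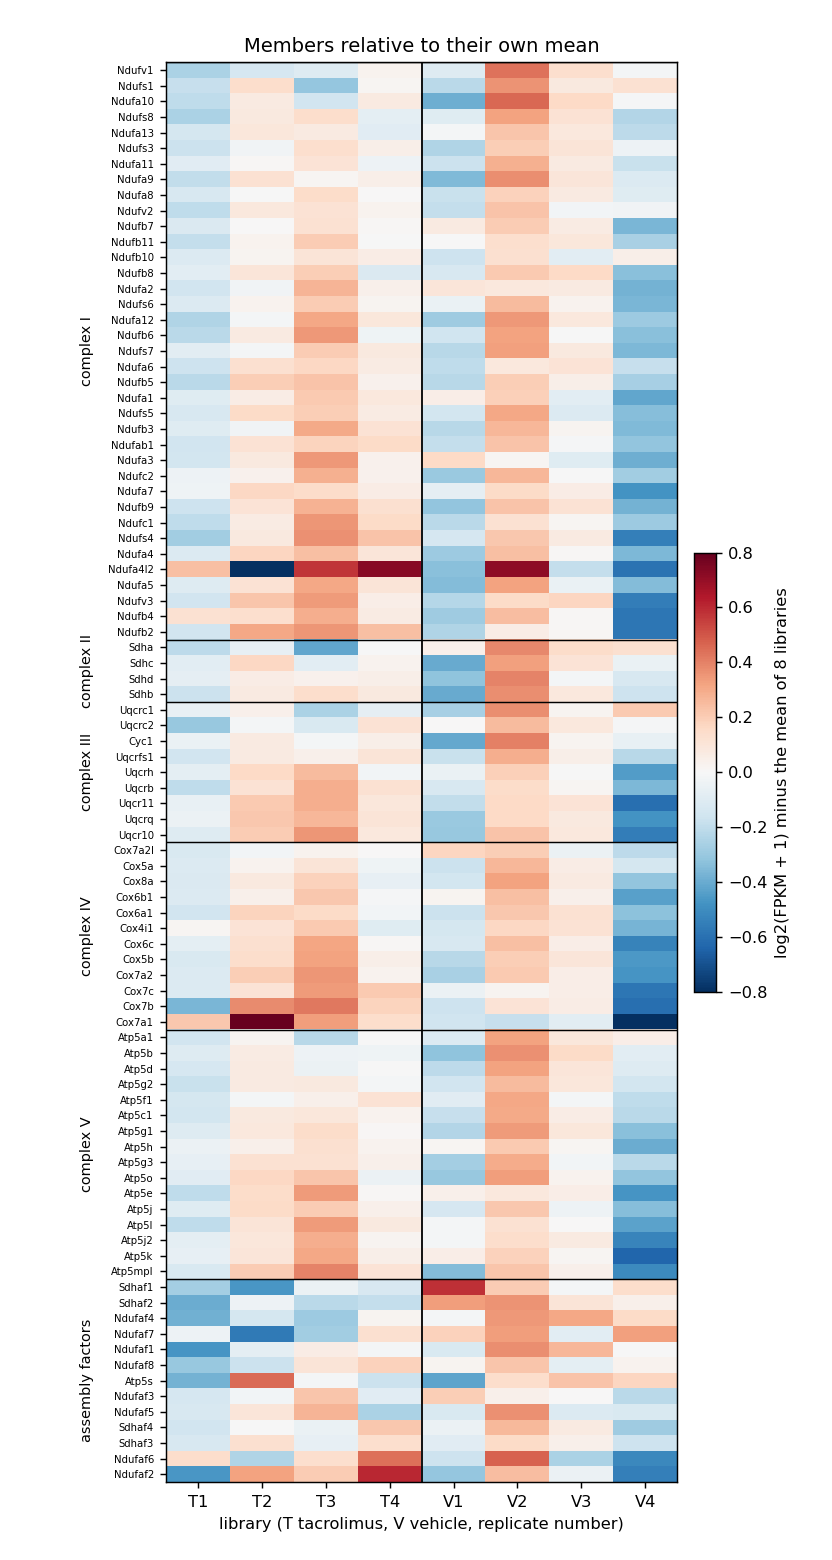
Heat map of log2(FPKM + 1) of the tested members (rows, by complex, 1 left out) in the 8 libraries (columns, T1 to T4 tacrolimus and V1 to V4 vehicle), as the difference from the member's own mean; the color scale ends at 0.8 in either direction. Vehicle replicate 2 is high and vehicle replicate 4 low for most subunits, so the vehicle libraries spread more than the tacrolimus libraries do.

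The spread within the vehicle group followed single libraries. The mean log2 level over all tested members was between 7.83 and 8.11 in the tacrolimus libraries and between 7.69 and 8.21 in the vehicle libraries, so the tacrolimus values lay within the vehicle range. The summed FPKM of members was 45030 ± 4380 with tacrolimus and 41610 ± 7221 with vehicle (SD, n = 4 each). The sums of the groups overlapped.

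**Figure D3:**
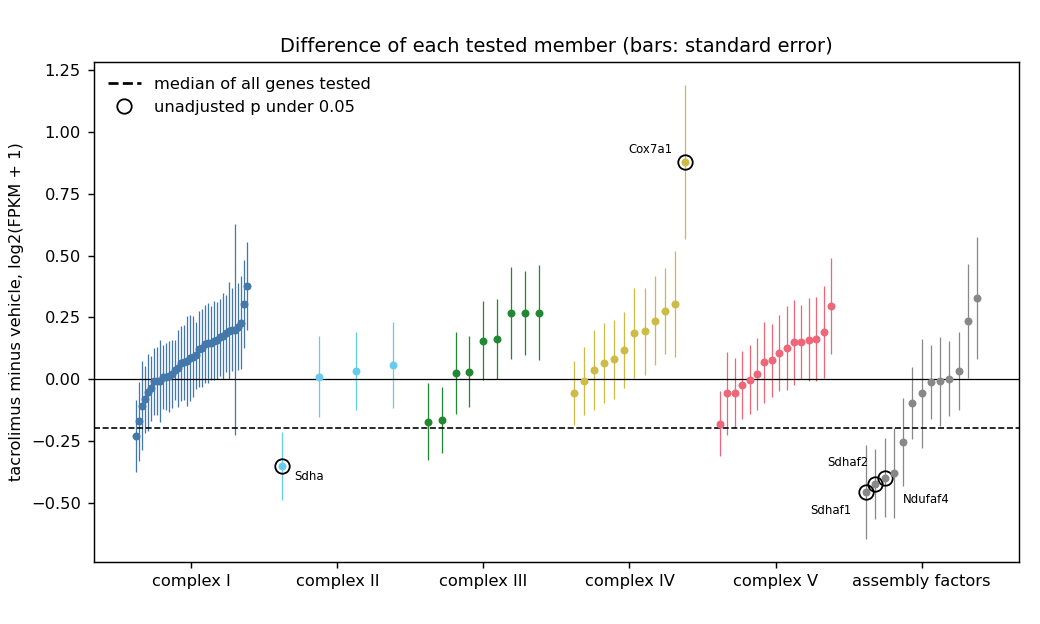
Difference between the group means (tacrolimus minus vehicle, log2(FPKM + 1)) of each tested member with its standard error, ordered within each complex; the dashed line is the median of all 13032 genes (-0.19) and rings mark an unadjusted p under 0.05. Most subunits lie between 0 and 0.30, above the dashed line, and the rings mark Cox7a1, Sdha, Sdhaf1, Sdhaf2 and Ndufaf4.

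In complex I, 29 of the 38 tested members had a higher mean with tacrolimus and 0 passed an unadjusted p of 0.05, with a median difference of 0.09. The 4 subunits of the catalytic arm described here lay between -0.23 and 0.09. Ndufv1, which holds the flavin that accepts electrons from NADH, was at 68.6, 74.5, 76.2 and 83.6 FPKM in tacrolimus replicates 1 to 4 and at 76.3, 111.02, 89.96 and 81.1 in the vehicle replicates. The tacrolimus values lay at the low end of the vehicle values and overlapped them (difference -0.23, SE 0.15, limma adjusted p = 0.419). Ndufs1, the largest iron-sulfur subunit, differed by -0.17 (SE 0.16). Ndufs7 and Ndufs8, which carry the iron-sulfur clusters next to quinone, differed by 0.09 (SE 0.16) and -0.05 (SE 0.15). Accessory subunits made up most of the positive side. The highest difference was that of Ndufb2, a small membrane-arm subunit, at 325, 448, 462 and 428 FPKM with tacrolimus and 305, 376, 364 and 242 with vehicle. Tacrolimus replicate 1 lay among the vehicle values and the other tacrolimus values above them (difference 0.38, SE 0.18, limma adjusted p = 0.301). Ndufb4 differed by 0.30 (SE 0.18), but Ndufb4c, annotated as a processed pseudogene of the same family, was at 69.8 to 152 FPKM, so the split of reads between them is uncertain.

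Complex II was the only complex with a subunit below an unadjusted p of 0.05 on the lower side. Sdha, the flavoprotein that oxidizes succinate (chromosome 13, 74322254 to 74350280 on GRCm38), was at 107, 118, 92.7 and 124 FPKM with tacrolimus and at 128, 162, 137 and 136 with vehicle. All 4 tacrolimus values were under all 4 vehicle values, although the highest of the former and the lowest of the latter lay close together. The difference was -0.35 (SE 0.14, limma adjusted p = 0.248). Its unadjusted p of 0.0294 rose to 0.0605 without tacrolimus replicate 1, 0.0919 without tacrolimus replicate 3, 0.0672 without vehicle replicate 2 and 0.0544 without vehicle replicate 3, each by limma. The other 3 subunits did not move with it: the differences were 0.06 for Sdhb (SE 0.17), 0.01 for the membrane anchor Sdhc (SE 0.16) and 0.03 for the membrane anchor Sdhd (SE 0.16). Sdhb was at 473, 560, 588 and 563 FPKM with tacrolimus and 403, 689, 565 and 474 with vehicle, with the tacrolimus libraries inside the vehicle range. The ratio of Sdha to Sdhb within a library needs no scaling between libraries and was chosen after the values were seen. It was 0.227, 0.212, 0.158 and 0.221 with tacrolimus and 0.317, 0.236, 0.243 and 0.287 with vehicle, with no overlap.

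In complex III, 7 of 9 members had a higher mean with tacrolimus, the median difference was 0.16 and 0 passed an unadjusted p of 0.05. Of the electron-carrying subunits, Cyc1, cytochrome c1, differed by 0.02 (SE 0.17) and Uqcrfs1, the Rieske iron-sulfur protein, by 0.03 (SE 0.14). The large core proteins Uqcrc1 and Uqcrc2 were at -0.17 (SE 0.15) and -0.16 (SE 0.13). The small subunits Uqcr10, Uqcrq and Uqcr11 were each at 0.27 (SE 0.19, 0.17 and 0.19), and Uqcrb and Uqcrh were each at 0.16 (SE 0.16). Differences between the 9 members were not tested. Uqcr11 was at 1207, 1454, 1538 and 1335 FPKM with tacrolimus and 1094, 1404, 1355 and 825 with vehicle, where vehicle replicate 4 was lowest and the groups overlapped. As a share of the summed FPKM of all tested members, complex III took 13.3%, 13.5%, 13.4% and 13.4% in the tacrolimus libraries and 12.7%, 12.8%, 13.2% and 12.4% in the vehicle libraries. The tacrolimus shares all lay above the vehicle shares, by a small margin. The shares of complexes I, II, IV and V and of the assembly factors overlapped between the groups.

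In complex IV, 10 of 12 tested members had a higher mean with tacrolimus, with a median difference of 0.15. The regulatory and structural subunits Cox4i1 and Cox5a differed by 0.12 (SE 0.15) and -0.0060 (SE 0.14), and Cox5b by 0.19 (SE 0.18). Cox4i1 was at 1025, 1094, 1169 and 946 FPKM with tacrolimus and 917, 1136, 1096 and 783 with vehicle, and the groups overlapped. Cox7b had the next highest difference after Cox7a1, at 0.30 (SE 0.22).

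Cox7a1, the form of subunit 7a typical of heart and skeletal muscle (chromosome 7, 30184144 to 30186078), was the single member higher at an unadjusted p under 0.05. It was at 16.2, 30.2, 17.7 and 15.4 FPKM with tacrolimus and at 12.3, 12.03, 13.01 and 4.91 with vehicle. All tacrolimus values lay above all vehicle values, with tacrolimus replicate 2 far above and vehicle replicate 4 far below their groups. The means were 19.9 ± 6.96 and 10.6 ± 3.79 FPKM (SD, n = 4 each), a difference of 0.88 (SE 0.31, limma adjusted p = 0.221). The unadjusted limma p of 0.0177 became 0.0538 without tacrolimus replicate 2 (difference 0.67). Without vehicle replicate 4 the difference was 0.58 and the unadjusted p 0.0366. Tacrolimus replicate 2 also had the lowest T cell marker level (2.38) and the highest erythroid level (9.52) of the 8 libraries, whereas vehicle replicate 4, with the lowest Cox7a1, was at 5.33 and 9.20. Skeletal muscle markers were low, with 2 of 6 tested and a list level of 1.62 to 1.98 with tacrolimus and 1.95 to 2.22 with vehicle. Their part in the difference was not tested.

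Most tissue-specific forms of complex IV subunits were at or near 0. Cox4i2, the form induced in lung and by low oxygen, was at 0.13 to 1.82 FPKM, and Cox6a2, the muscle form of subunit 6a, at 0.14 to 1.51. Cox6b2, the testis form of subunit 6b, was at most at 1.16 FPKM, Cox8b was listed at 0 in all libraries but vehicle replicate 4 (1.08), and Cox7b2 and Cox8c were listed at 0 in all 8. The ubiquitous forms Cox6a1, Cox6b1 and Cox8a were at means of 1060, 703 and 1102 FPKM with tacrolimus and 1009, 679 and 1085 with vehicle. Paralog shares, 5 in all, were compared with exact two-sided permutation tests over the 70 assignments, for which the smallest p is 0.0286, with adjustment over the 5. Cox7a1 made up 1.78%, 2.67%, 1.42% and 1.54% of the Cox7a1 and Cox7a2 sum with tacrolimus and 1.51%, 1.07%, 1.29% and 0.705% with vehicle (exact permutation p = 0.0571, adjusted p = 0.143). Cox7a2, the ubiquitous form, therefore supplied nearly all of the subunit 7a message in each library. Ndufa4l2 made up 0.243% ± 0.133 of its sum with Ndufa4 with tacrolimus and 0.207% ± 0.0782 with vehicle (SD, n = 4 each, exact permutation p = 0.629).

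In complex V, 11 of 16 tested members had a higher mean with tacrolimus, the median difference was 0.09 and 0 passed an unadjusted p of 0.05. The subunits of the catalytic head and the central stalk were near or below 0. Atp5a1 (alpha) differed by -0.18 (SE 0.13), Atp5b (beta) by -0.06 (SE 0.17) and Atp5c1 (gamma, the central stalk) by 0.02 (SE 0.15). Atp5b was at 2068, 2323, 2159 and 2166 FPKM with tacrolimus and 1774, 2859, 2467 and 2096 with vehicle, and the narrow tacrolimus range fell inside the vehicle range. The small membrane-associated subunits Atp5k and Atp5mpl were at 0.19 (SE 0.19) and 0.30 (SE 0.19). Differences between subunits were not tested. The c subunit, which forms the rotor ring, is made from 3 genes that encode one mature protein. Atp5g3 supplied 63.2%, 62.7%, 62.1% and 62.7% of their sum with tacrolimus and 60.7%, 62.0%, 60.1% and 62.4% with vehicle, and the ranges overlapped slightly (exact permutation p = 0.0571, adjusted p = 0.143). Atp5g2 supplied 18.4% ± 0.287 and 19.7% ± 0.827 (SD, n = 4 each, exact permutation p = 0.114, adjusted p = 0.190), and Atp5g1 18.9% ± 0.302 and 19.0% ± 1.04 (exact permutation p = 0.914). Complex V took 28.3%, 28.1%, 27.5% and 27.9% of the member sum with tacrolimus and 27.9%, 28.9%, 28.3% and 29.2% with vehicle.

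The assembly factors held 3 of the 4 members that were lower at an unadjusted p under 0.05, and 9 of the 13 had a lower mean with tacrolimus (median difference -0.06). Over all genes tested, 75.7% had a lower mean and 15.8% were lower at that threshold, and the assembly factors' median lay 0.14 above that of all genes. Sdhaf2, which helps insert the flavin into Sdha (chromosome 19, 10500534 to 10526142), was at 20.8, 26.8, 23.6 and 24.0 FPKM with tacrolimus and at 35.1, 35.7, 29.8 and 28.4 with vehicle. The groups did not overlap, and the difference was -0.42 (SE 0.14, limma adjusted p = 0.210). Its unadjusted p stayed under 0.05 when each library was left out in turn, with differences from -0.48 to -0.36.

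Sdhaf1, which serves the iron-sulfur protein Sdhb and was named after its values were seen (chromosome 7, 30321406 to 30323895), was at 5.21, 4.44, 6.26 and 5.88 FPKM with tacrolimus and at 10.3, 7.65, 6.41 and 7.26 with vehicle. The groups did not overlap by a narrow margin, and the difference was -0.46 (SE 0.19, limma adjusted p = 0.261). Its unadjusted p of 0.0367 rose above 0.05 in limma without vehicle replicate 1 (0.0995), tacrolimus replicate 2 (0.106), tacrolimus replicate 1 (0.0739), vehicle replicate 2 (0.0566) or vehicle replicate 4 (0.0527).

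Ndufaf4, a complex I assembly factor (chromosome 4, 24898083 to 24905001), was at 9.25, 11.2, 9.94 and 12.6 FPKM with tacrolimus and at 12.2, 16.0, 15.6 and 13.9 with vehicle. Tacrolimus replicate 4 overlapped vehicle replicate 1, and the difference was -0.40 (SE 0.16, limma adjusted p = 0.252). Its unadjusted p of 0.0324 rose above 0.05 in limma without tacrolimus replicate 1 (0.0911), 2 (0.0547) or 3 (0.0700), and without vehicle replicate 2 (0.0734), 3 (0.0846) or 4 (0.0546). The other complex II factors Sdhaf3 and Sdhaf4 differed by 0.03 (SE 0.16) and 0.0031 (SE 0.15).

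Scaling between libraries decided how the members as a whole appeared. After median-of-ratios scaling, which sets the median ratio of each library to the average library equal, the median of all genes was 0.0057, and 85 of 92 members had a higher mean, with a median difference of 0.30. Under that scaling 31 of 92 members were higher at an unadjusted p under 0.05, against 5.69% of all genes, and 0 were lower, against 5.64%. No member passed an adjusted p of 0.05 there. The 31 comprised 15 of complex I, 6 of complex III, 5 of complex IV, 4 of complex V, 0 of complex II and 1 assembly factor. The groups did not overlap and were higher for 20 members, against 3.22% of all genes. With upper-quartile scaling 55 of 92 were higher, against 7.67%. Both counts rested in large part on vehicle replicate 4: without it 8 of 92 were higher after median-of-ratios scaling, against 4.77% of all genes, and 21 after upper-quartile scaling, against 6.5%.

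Cox7a1 was the single gene of the 5 above that still passed an unadjusted p of 0.05 under both scalings, with a difference of 1.09 by median-of-ratios. The 4 members that were lower kept a negative difference under it: -0.12 for Sdha, -0.20 for Sdhaf2, -0.26 for Sdhaf1 and -0.19 for Ndufaf4. Relative to all genes, the members' median was 0.29 higher under median-of-ratios and 0.30 higher under upper-quartile scaling, close to the 0.26 in the values as deposited.

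Transcripts of the mitochondrial genome, which encode the remaining subunits of complexes I, III, IV and V, stood higher relative to the nuclear members. Of the 13, mt-Nd4l was listed at 0 throughout, and the 12 others all had a higher mean with tacrolimus (median difference 0.55). Over all genes tested, 24.3% had a higher mean. An unadjusted p under 0.05 was reached by 8 of the 12, against 1.6% of all genes on the higher side, and 0 passed the adjustment (limma). Among the 8, mt-Atp6 of ATP synthase was at 12370, 13067, 13822 and 14022 FPKM with tacrolimus and 8260, 9471, 10654 and 8255 with vehicle, with no overlap (difference 0.55, SE 0.17, limma adjusted p = 0.195). mt-Nd2 of complex I differed by 0.63 (SE 0.18, limma adjusted p = 0.193). Within a library, the sum of mitochondrially encoded subunits over the sum of nuclear-encoded subunits was 1.68, 1.28, 1.243 and 1.296 with tacrolimus and 1.02, 0.877, 1.12 and 1.15 with vehicle. The tacrolimus ratios all exceeded the vehicle ratios, and replicate 1 stood above the other tacrolimus libraries. All genes of the mitochondrial chromosome, and not its subunit genes alone, took 6.65% (vehicle replicate 2) to 20.4% (tacrolimus replicate 1) of the summed FPKM. All values of a library share its total. Rescaled without all of these genes, the members' median difference was 0.15, with 5 members above and 3 below at an unadjusted p under 0.05. Of all 13465 genes tested after that rescaling, 2.32% were above and 11.3% below at that threshold, with a median of -0.12.

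**Figure D4:**
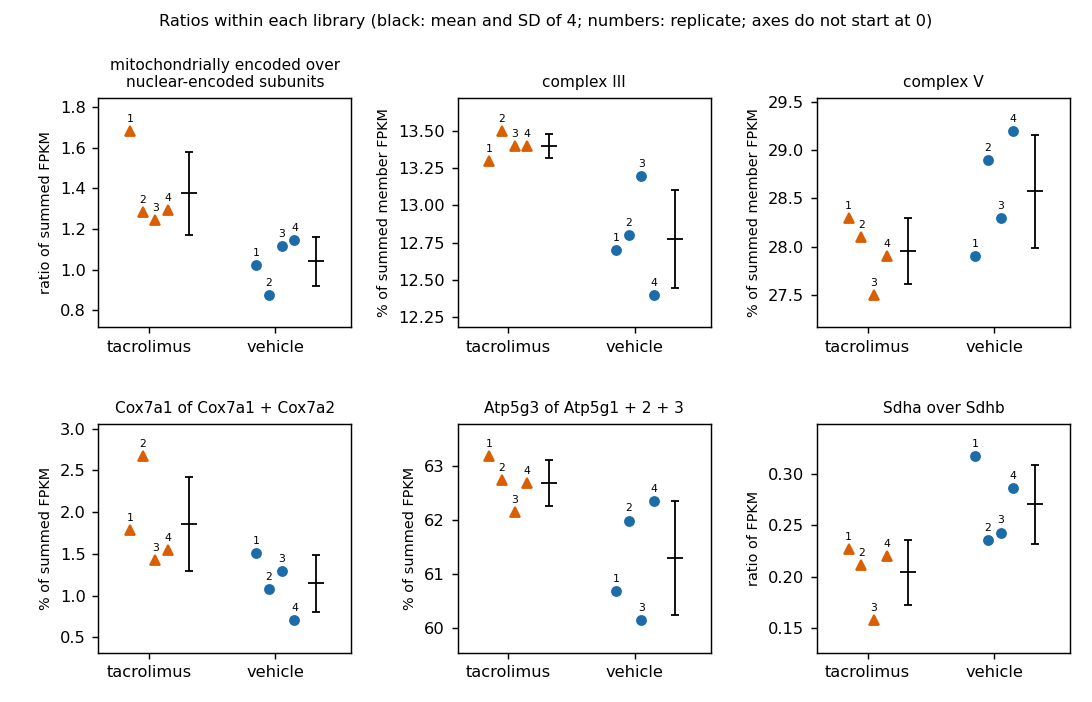
Ratios and shares within each library, which do not depend on scaling between libraries: points are libraries with their replicate number, and black marks are the mean and SD of 4. The mitochondrially encoded over nuclear-encoded ratio, the complex III share, and Sdha over Sdhb do not overlap between the groups. The complex V, Cox7a1 and Atp5g3 shares overlap, as do those of the complexes and assembly factors not plotted. The ratios were added after the values were seen, and Sdha did not overlap by itself.

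Members with short transcripts lay higher than members with long ones, a split made after the values were seen. The 46 members with a median coding transcript of at most 713.5 bases had a median difference of 0.15, and 40 of them had a higher mean with tacrolimus. The 46 longer ones had a median of 0.01 and 24 with a higher mean. The Spearman correlation of length with the difference was -0.54 over the 92 members. It was -0.02 over the 11602 tested protein-coding genes, of which those at most 713.5 bases long had a median of -0.13 and the longer ones -0.22. The points share the same 8 libraries. The length is a median over all annotated coding transcripts of a gene and need not be that of the transcript present. By this measure the core proteins Ndufs1 (651 bases) and Uqcrc1 (533) and the assembly factor Ndufaf2 (556) fell among the shorter ones. The small accessory subunit Ndufb2 (2413) fell among the longer. Whether length and role go together was not tested. Within a library, the mean log2 level of shorter minus longer members was 1.78, 1.86, 1.88 and 1.75 with tacrolimus and 1.75, 1.65, 1.72 and 1.54 with vehicle, which overlapped. Split by the longest coding transcript instead, at 963 bases, the same quantity was 1.55, 1.54, 1.68 and 1.53 with tacrolimus and 1.51, 1.42, 1.45 and 1.27 with vehicle, which did not overlap. At that cut the median difference was 0.15 for the shorter and -0.0031 for the longer members. Over the tested protein-coding genes it was -0.013 for the 657 shorter and -0.22 for the 10945 longer ones, so shorter genes lay higher there too. The Spearman correlation with the longest transcript was -0.53 over members and 0.0002 over these genes. The part of transcript length in the differences was not tested.

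**Figure D5:**
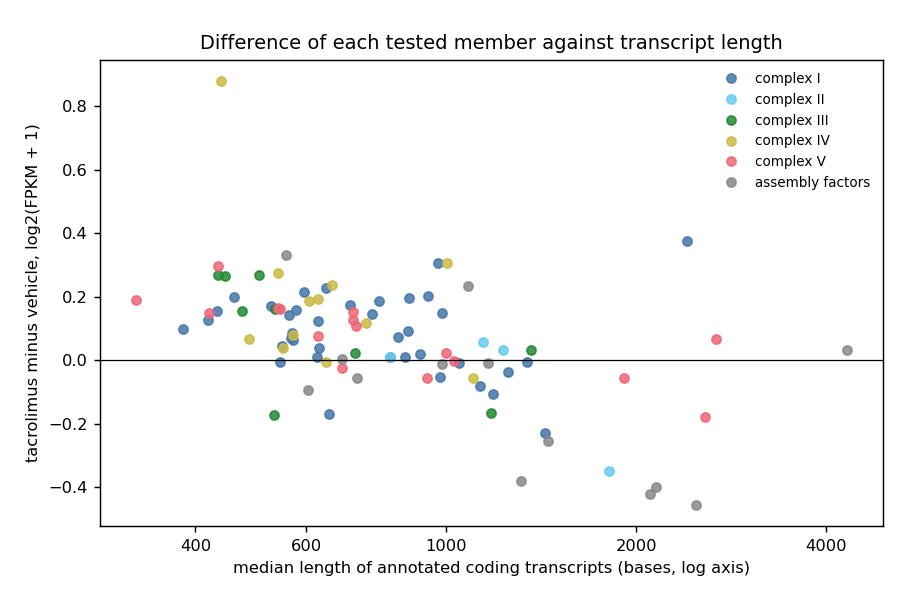
Difference between the group means (tacrolimus minus vehicle, log2(FPKM + 1)) of the 92 tested members against the median length of their annotated coding transcripts (log axis), colored by complex. Short members lie mostly above 0, and the members near -0.40 have long transcripts, with a Spearman correlation of -0.54.

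Other genes of mitochondrial energy metabolism, in lists written from textbook knowledge, are described beside the members without a test between lists. The counts are to be read against all genes tested, of which 75.7% had a lower mean, 15.8% were lower and 1.6% higher at an unadjusted p under 0.05, with a median of -0.19. Of 36 further assembly factors of the complexes, 29 had a lower mean with tacrolimus (median difference -0.14), with 4 lower and 0 higher at an unadjusted p under 0.05. Coa4 and Ttc19, which serve complexes IV and III, differed by -0.64 (SE 0.21) and -0.50 (SE 0.18). Of the 17 tricarboxylic acid cycle genes, which supply NADH and succinate, 16 had a lower mean (median -0.12) and 1, Ogdh of the 2-oxoglutarate dehydrogenase complex, was lower at that threshold (-0.48, SE 0.18). Of 13 genes of coenzyme Q synthesis, 10 had a lower mean (median -0.12) and only Coq5 passed, at -0.45 (SE 0.16).

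Among 16 regulators of mitochondrial biogenesis, 12 had a lower mean (median -0.27), against 75.7% of all genes. Of these, Myc (-0.51, SE 0.15) and Tfam, which packages and transcribes mitochondrial DNA (-0.54, SE 0.20), were lower at an unadjusted p under 0.05 (limma). The 78 mitochondrial ribosomal protein genes had a median of -0.05 with 30 of them higher, and 1, Mrpl37, passed on the lower side. The 6 tested genes of cytochrome c, supercomplexes and the ATP synthase inhibitor had a median of 0.15, with 5 higher and 0 passing. In that list Higd1a, a hypoxia-inducible complex IV factor, was at 0.45 (SE 0.23), and Usmg5, a small ATP synthase protein outside the symbol rule, at 0.33 (SE 0.20). Of the 12 hypoxia-responsive genes, 9 had a higher mean (median 0.10), and Hif1a itself was the one that passed, at -0.37 (SE 0.13). Higd1a is counted in this list as well as in the one before.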

How the data were processed

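Gene-level RNA sequencing values of 8 libraries, 4 from tacrolimus and 4 from vehicle mice, were analysed, with groups and replicate numbers from the sample titles. The members and gene lists were chosen with earlier results of these data known. No header or label names the unit of the deposited values. From the values it was inferred to be FPKM, which the authors had thus already divided by gene length and library size. The values of a library summed to 890182 to 926808. Fragment counts were not used, so no interval for counting error is given. The submitters' processing notes name HISAT2 2.1.0, RSEM 1.3.1, DESeq2 1.24.0 and the build GRCm38.p6, with no role or order.

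Symbols, gene types and coordinates came from GENCODE M21 by Ensembl identifier, and 346 identifiers had no symbol. Genes with an FPKM of at least 1 in at least 4 libraries were compared on log2(FPKM + 1), a scale that understates the change of low genes. The test was limma 3.58.1 (eBayes with a mean-variance trend, R 4.3.3) and had no covariate beside treatment. Benjamini-Hochberg adjustment ran over all 13032 genes. Where a p is called unadjusted it comes from the same fit. The fit was tested on simulated data. Exact permutation tests compared paralog shares (Python 3.11.15, scipy 1.17.1), and plots used matplotlib 3.10.9. Members were placed in complexes by symbol.

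Named were the core subunits, in each complex up to 2 members per direction with the smallest unadjusted p under 0.05, the paralog sets, the highest and lowest member of each complex and the 2 genes with the smallest p of each further list. A single core subunit is not reported here. Other members and genes named in the text were chosen after their values were seen. Alternatives were another pseudocount, other filters, median-of-ratios and upper-quartile scaling, rescaling without mitochondrial genes, a robust variance prior, a block for the replicate number, and the removal of single libraries. Leaving out a library together with a scaling, the length split and the ratios within libraries were added after seeing the data.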

Additional observations from a re-analysis of the deposited data

Results flagged for a closer look

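In 130 groups of 4 values among the named members, shares and ratios, the highest or lowest library was checked against the other 3 of its group, a check that flags about 1 group in 20 by chance. It marked 6 values. Cox7a1 was at 30.2 FPKM in tacrolimus replicate 2, where the other tacrolimus libraries were at 15.4 to 17.7, and at 4.91 FPKM in vehicle replicate 4, where the other vehicle libraries were at 12.03 to 13.01. The Atp5g2 share of the c subunit messages was 17.97% in tacrolimus replicate 1, against 18.5% to 18.6% in the others. The summed mitochondrially encoded over nuclear-encoded subunits stood at 1.68 in tacrolimus replicate 1, against 1.243 to 1.296. Shorter minus longer members, split by the longest coding transcript, were at 1.68 (log2) in tacrolimus replicate 3, against 1.53 to 1.55. Assembly factors made up 0.945% of the member sum in tacrolimus replicate 4, against 0.772% to 0.799%.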

How the results depend on the processing

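No member passed an adjusted p of 0.05 in limma under any setting tried. Genes passing it numbered 0 as deposited, 121 with the replicate block, 0 to 1 when single libraries were left out (1 without vehicle replicate 1) and 1 with median-of-ratios scaling without vehicle replicate 1. Members lower at an unadjusted p under 0.05 numbered 4 as deposited, 1 to 5 with single libraries left out, and 0 with median-of-ratios scaling, with upper-quartile scaling, and with either scaling after removal of a library. Members higher numbered 1 as deposited, 0 to 4 with single libraries left out, 5 after rescaling without mitochondrial genes, 31 with median-of-ratios and 55 with upper-quartile scaling. With median-of-ratios scaling they were 26 without tacrolimus replicate 1, 30 without vehicle replicate 1 and 8 without vehicle replicate 4, and with upper-quartile scaling 21 without vehicle replicate 4. Of all genes tested, 15.8% were lower and 1.6% higher as deposited, and 5.69% and 7.67% were higher under the 2 scalings. Without vehicle replicate 4 these became 4.77% and 6.5%. For the other removals of a library no share over all genes is given, so those member counts have no background. The members' median difference of 0.07 ran from -0.0071 to 0.17 with single libraries left out. It was 0.30 with median-of-ratios scaling, 0.31 with it and without tacrolimus replicate 1 or without vehicle replicate 1, 0.21 with it and without vehicle replicate 4, 0.34 with upper-quartile scaling and 0.26 with that scaling without vehicle replicate 4. The cause was not tested. Leaving out libraries moved the Cox7a1 share difference between 0.438 and 0.853 percentage points, that of Atp5g2 between -1.71 and -1.12 and that of Atp5g3 between 1.01 and 1.75. The exact permutation p reached 0.0286 for Cox7a1 without tacrolimus replicate 3, for Atp5g2 without vehicle replicate 2 and for Atp5g3 without vehicle replicate 4. That is the smallest p this test can give with 1 library removed, and it was not adjusted. These removals were picked from all those tried, and each took out a library whose share lay within the range of the other group.

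With a replicate block, 2 of 92 members were above and 3 below at an unadjusted p under 0.05, where 2.12% and 19.9% of all genes were. The deviations of same-numbered libraries correlated at 0.215, 0.277, -0.0197 and -0.0217, and those of libraries with different numbers at -0.324 to 0.155. Replicates 1 and 2 thus gave the highest values of all pairs. The labels state no pairing, so the main fit had no block. Whether the numbers pair the mice cannot be told from these values. The depth of each library was not given in the files, which limits what can be said of low members such as Ndufa4l2.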
